A study of Homo sapiens with 10 samples.

Results

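Eph receptors, ephrins, Slits, Robos, netrins and the netrin receptors guide growing axons and moving cells, and they were examined here as a group of 38 genes among the 62700 genes of the series. The group was chosen by name: every EPHA, EPHB, EFNA, EFNB, SLIT, ROBO and UNC5 gene, the numbered NTN genes and DCC, which gives 15 ligands (ephrins, Slits, netrins) and 23 receptors. RNA came from RPE p53-/- cells, a human line labelled as retinal pigment epithelium that lacks the tumour suppressor p53. Of 10 libraries, 5 came from cells in which CCAR1, a coactivator of transcription, was knocked out, and 5 from the parental cells. Cells of both genotypes lack p53 and were grown in the same medium with serum. Whether the knockout cells are 1 clone, and whether replicates were separate cultures, is not in the labels, so the p-values reflect variation among these libraries only and that variation could be technical.

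Eph receptors form a large family of receptor tyrosine kinases that are switched on by ephrins on a neighbouring cell, and the ephrins can signal back into the cell that carries them. EphA receptors mainly bind the ephrin-A ligands, which are held in the membrane by a lipid anchor, while EphB receptors mainly bind the ephrin-B ligands, which span the membrane. Slits are secreted proteins that act through Robo receptors, mostly to repel. Netrins are secreted relatives of laminins that attract through DCC and repel through UNC5 receptors. Outside the nervous system, the same genes help to set tissue boundaries, cell adhesion and the branching of epithelia and vessels.

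The libraries fell into a shallow and a deep set, with 52.6 to 65.2 M counts (1e6 counts) per library in replicates 1 to 3 of both genotypes and 320.6 to 385.4 M in replicates 4 and 5. The shallow set of both genotypes also held transcripts of skeletal muscle, blood and liver: the summed level of 6 muscle markers was 189 to 431 CPM (counts per 1e6, after scaling of library sizes) in shallow and 0.184 to 0.21 CPM in deep knockout libraries, against 328 to 483 CPM in shallow and 0.16 to 0.299 CPM in deep parental libraries. The sum of 5 liver markers was 48.3 to 84.3 CPM in shallow and 1.77 to 1.79 CPM in deep knockout libraries, against 28.9 to 86.1 CPM in shallow and 1.36 to 1.84 CPM in deep parental libraries. Of the muscle, blood and liver markers none was called between genotypes, and with the replicate block the muscle gene MYH2 was called lower and the globin gene HBB higher (edgeR adjusted p = 0.0339 and 0.00247). Fold changes are also given within each set, and the part of these transcripts in the results was not tested. Among 10 markers of retinal pigment epithelium the visual cycle genes RPE65 and RLBP1 and the pigment genes TYR and PMEL averaged below 1 CPM, while MITF, OTX2 and the keratins KRT8 and KRT18 averaged at least 10 CPM. The summed level of the 10 was 352 to 445 CPM in knockout and 383 to 520 CPM in parental libraries, mostly keratins. BEST1 and OTX2 were called higher, and with the replicate block KRT18 and KRT8 were called lower (log2 fold changes -0.24 and -0.14, edgeR adjusted p = 0.00166 and 0.0254). CCAR1, the targeted gene, was at 92.3, 95.6, 88.5, 125.7 and 125.5 CPM in knockout replicates 1 to 5, against 125.4, 132.6, 134.0, 173.1 and 173.4 CPM in parental replicates 1 to 5. Within each set every knockout library lay below the parental ones (log2 fold change -0.48, edgeR adjusted p = 0.0201). Relative to the median of chromosome 10, which carries CCAR1, the log2 fold change was -0.31 and did not pass (edgeR adjusted p = 0.121). CCAR1 RNA was still present in every knockout library, and its protein was not measured here.

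Adjusted p-values are from edgeR's quasi-likelihood test over 18979 genes, and a gene is called higher or lower in knockout cells where this value is under 0.05. Of the 38 guidance genes 26 had enough counts to be tested, 7 were higher, 6 were lower and 13 did not pass. Among all genes tested 36.6% were called, 19.7% higher and 16.9% lower. The median log2 fold change of the 26 was 0.01 and its median size without regard to sign was 0.51, against 0.02 and 0.31 over all genes. Among ligands 3 of 12 were higher and 4 lower, and among receptors 4 of 14 were higher and 2 lower. With the replicate number as a block, a fit that called 61.2% of all genes (31.1% higher and 30.1% lower), the counts were 5 higher and 4 lower among ligands and 5 higher and 5 lower among receptors. For 11 of the 26 genes every knockout library lay outside the parental range, against 30.6% of all genes tested. The genotype effect differed between deep and shallow libraries for none of the 26 by edgeR's interaction test, which called 0.601% of all genes. Passing the filter on low counts can depend on the genotype in which a gene is high, so these counts describe the 26 tested genes and not the whole group.

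Of the called genes, the 2 with the largest fall and the 2 with the largest rise are taken first. SLIT2, a secreted ligand, and EFNB2, the membrane ligand ephrin-B2, were lower in knockout cells. EFNB1, which encodes ephrin-B1, and EPHB3, a receptor for B ephrins, were higher. Their upstream sequences are shown because these genes changed most. Each line holds the 250 bases before the start site in RefSeq (GRCh38.p14), written 5′ to 3′ on the strand of the gene, with CpG dinucleotides in capitals.

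SLIT2 (chr4:20251655-20251904, plus strand): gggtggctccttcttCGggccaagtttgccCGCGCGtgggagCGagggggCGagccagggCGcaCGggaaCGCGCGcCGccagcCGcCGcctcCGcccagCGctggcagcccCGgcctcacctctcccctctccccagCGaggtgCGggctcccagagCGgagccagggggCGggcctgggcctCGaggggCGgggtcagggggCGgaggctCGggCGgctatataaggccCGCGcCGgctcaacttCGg
EFNB2 (chr13:106535663-106535912, minus strand): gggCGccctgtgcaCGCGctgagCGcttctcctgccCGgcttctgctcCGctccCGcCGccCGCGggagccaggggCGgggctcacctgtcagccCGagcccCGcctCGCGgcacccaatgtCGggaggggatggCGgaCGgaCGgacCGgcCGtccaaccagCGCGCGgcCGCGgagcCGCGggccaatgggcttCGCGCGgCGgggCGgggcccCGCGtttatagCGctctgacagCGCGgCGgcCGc
EFNB1 (chrX:68828771-68829020, plus strand): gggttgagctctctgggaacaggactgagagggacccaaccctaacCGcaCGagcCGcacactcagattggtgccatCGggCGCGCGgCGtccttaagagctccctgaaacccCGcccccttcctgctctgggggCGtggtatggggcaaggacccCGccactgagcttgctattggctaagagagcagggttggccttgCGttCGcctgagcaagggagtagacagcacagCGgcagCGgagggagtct
EPHB3 (chr3:184561535-184561784, plus strand): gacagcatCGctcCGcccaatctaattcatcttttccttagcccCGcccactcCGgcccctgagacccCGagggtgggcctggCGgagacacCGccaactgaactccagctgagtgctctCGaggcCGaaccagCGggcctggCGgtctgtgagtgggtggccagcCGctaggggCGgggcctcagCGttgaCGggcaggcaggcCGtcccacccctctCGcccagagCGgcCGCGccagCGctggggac

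All 4 windows held more CpG than the median promoter, whichever way the gene moved. The guidance genes as a group did too: the median of the 32 with a sequence was 18 (quartiles 14.75 and 26.75). It was 17 for tested and 19 for untested guidance genes, both above the median promoter. The tested genes include the called ones, and those tested but not called were not taken separately. The window held 15 CpG in EFNB1, 21 in EPHB3, 30 in SLIT2 and 40 in EFNB2. Over all called guidance genes with a sequence the median was 21 for the 5 that were higher (quartiles 15 and 23) and 25 for the 6 that were lower (quartiles 15.5 and 37.5), and the quartile ranges overlapped. Over 35116 promoters of the same length the median was 11, and 12.4% held at least as many CpG as SLIT2 and 2.16% at least as many as EFNB2. For EFNB1 and EPHB3 these shares were 42.9% and 30.2%. The RefSeq start of SLIT2 lies upstream of the gene start in GENCODE that is given for its counts. Methylation was not measured in these libraries.

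The B ephrins changed in opposite directions. EFNB1 (chromosome X, 68828997 to 68842147, hg38) was at 35.2, 36.3, 34.6, 24.3 and 24.1 CPM in knockout replicates 1 to 5, against 6.49, 5.60, 5.71, 4.89 and 4.59 CPM in parental replicates 1 to 5. All knockout libraries were above all parental ones, with the shallow knockout libraries higher than the deep. Means were 30.9 ± 6.15 CPM in knockout and 5.46 ± 0.744 CPM in parental cells (SD, n = 5 each, as for every mean here), a 5.68-fold rise (log2 fold change 2.5 with its standard error of 0.157, edgeR adjusted p = 1.04e-06). EFNB2 (chromosome 13, 106489731 to 106535662, hg38), the main partner of EPHB4 in blood vessels, was at 2.57, 3.00, 2.62, 2.59 and 2.65 CPM in knockout replicates 1 to 5, against 10.2, 9.56, 10.8, 11.6 and 11.1 CPM in parental replicates 1 to 5. The groups did not overlap, and the parental libraries were close together at 9.56 to 11.6 CPM. Its level fell to 2.69 ± 0.178 CPM in knockout cells, against 10.7 ± 0.805 CPM in parental cells, or 3.97-fold (log2 fold change -1.99 with its standard error of 0.0835, edgeR adjusted p = 6.76e-08). Taken separately, the log2 fold changes were 2.57 in shallow and 2.33 in deep libraries for EFNB1 and -1.90 in shallow and -2.13 in deep libraries for EFNB2. For both genes an exact permutation test on log2 CPM, two-sided, gave p = 0.00794, the smallest that 252 arrangements can give. Groups that do not overlap give this value whatever the size of the difference, so it adds nothing to the ranges. Ranges did not overlap for 30.6% of all genes tested. With less RNA of a gene in a bulk sample, fewer cells that make it and less RNA per cell cannot be told apart. Protein-coding genes of chromosome 13, which carries EFNB2, were shifted as a group by a median of -0.41, and the log2 fold change of EFNB2 after removing it was -1.58 (edgeR adjusted p = 3e-07). An antisense gene that covers 26.2% of the exon bases of EFNB2 was at 0 to 0.0292 CPM in knockout and 0.0502 to 0.124 CPM in parental libraries.

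Per kilobase of exon, a rough scale for comparing different genes, EFNB1 and EFNB2 were near each other in parental cells and far apart in knockout cells. The length is that of all annotated exons of a gene together, which can exceed that of the transcripts expressed. Ranks and shares between genes are therefore approximate. EFNB1 made up 92.7% to 94.9% of the summed ephrin-B level in knockout libraries, against 38% to 48.3% in parental libraries. The log2 ratio of EFNB1 to EFNB2 was 3.78 to 4.38 in knockout libraries and -0.68 to -0.05 in parental libraries. The sum itself was 9.91 ± 1.88 CPM per kb in knockout cells and 3.81 ± 0.18 CPM per kb in parental cells. EFNB3, the remaining ephrin-B, was too low to be tested, at 0.111 to 0.205 CPM in knockout and 0.0707 to 0.220 CPM in parental libraries. The plot of ratios shows the same balance for each library beside that of SLIT2 to SLIT3 and EPHB2 to EPHB4.

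**Figure D1:**
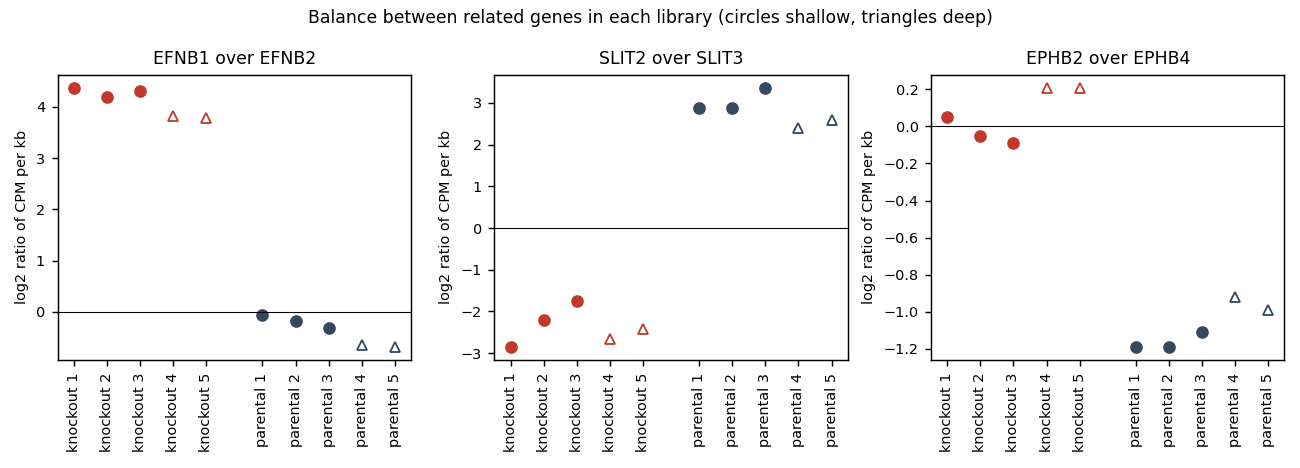
Log2 ratio of CPM per kb of exon (y axis) between related guidance genes in each of the 10 libraries (x axis), circles for shallow and triangles for deep libraries. EFNB1 exceeds EFNB2 in all 5 knockout libraries (3.78 to 4.38) and lies below it in the parental ones (-0.68 to -0.05), and SLIT2 lies below SLIT3 in knockout (-2.85 to -1.75) and above it in parental libraries (2.4 to 3.37).

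The A ephrins moved less. EFNA4 was the most abundant of them per kilobase, at 4.23 CPM per kb in knockout and 3.64 CPM per kb in parental cells. EFNA5 (chromosome 5, 107376889 to 107670895, hg38), a ligand that repels retinal axons in the developing visual system, was at 4.30, 4.17, 3.43, 4.45 and 4.81 CPM in knockout replicates 1 to 5, against 5.23, 5.00, 5.02, 7.82 and 7.20 CPM in parental replicates 1 to 5. All knockout libraries were below all parental ones, and the gap was wider in the deep libraries. It fell to 4.23 ± 0.507 CPM in knockout cells, against 6.05 ± 1.35 CPM in parental cells (log2 fold change -0.52 with its standard error of 0.155, edgeR adjusted p = 0.0236), with log2 fold changes of -0.37 in shallow and -0.72 in deep libraries. The call was lost without parental replicate 4 (edgeR adjusted p = 0.0539), without parental replicate 5 (0.0593) and with no filter on low counts (0.0522). EFNA3 was at 0.893, 1.40, 1.40, 0.761 and 0.886 CPM in knockout replicates 1 to 5, against 0.535, 0.618, 0.884, 0.507 and 0.524 CPM in parental replicates 1 to 5. Knockout and parental ranges overlapped through parental replicate 3, and within each depth every knockout library was above the parental ones. Means were 1.07 ± 0.309 CPM in knockout and 0.614 ± 0.157 CPM in parental cells (log2 fold change 0.80 with its standard error of 0.233, edgeR adjusted p = 0.0207), and leaving out knockout replicate 2 or 3 or parental replicate 4 or 5 ended the call (edgeR adjusted p = 0.0525 to 0.0552). EFNA3 shares 44.7% of its exon bases with the readthrough gene EFNA4-EFNA3, counted separately at 0.0770 to 0.269 CPM in knockout and 0.0582 to 0.159 CPM in parental libraries, so its counts are uncertain. EFNA4 itself ranged from 4.09 to 6.63 CPM in knockout and 3.81 to 5.35 CPM in parental libraries (log2 fold change 0.22, edgeR adjusted p = 0.314, and 0.0242 with the replicate block). EFNA1, the usual ligand of EPHA2, ranged from 0.223 to 0.616 CPM in knockout and 0.251 to 0.689 CPM in parental libraries, and EFNA2 from 0.0758 to 0.519 CPM in knockout and 0.0471 to 0.353 CPM in parental libraries. Neither EFNA1 nor EFNA2 passed (edgeR adjusted p = 0.979 and 0.647).

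SLIT2 had the largest change of the 26 tested genes in either direction. Encoded on chromosome 4, 20253260 to 20620561, hg38, it was at 0.465, 0.673, 0.665, 0.531 and 0.660 CPM in knockout replicates 1 to 5, against 16.9, 13.8, 15.3, 15.98 and 15.6 CPM in parental replicates 1 to 5. The highest knockout library held 0.673 CPM and the lowest parental one 13.8 CPM. Its level fell 25.9-fold, to 0.599 ± 0.0950 CPM in knockout cells, against 15.5 ± 1.14 CPM in parental cells (log2 fold change -4.70 with its standard error of 0.128, edgeR adjusted p = 6.98e-09; exact two-sided permutation p = 0.00794). The decrease was alike in both sets of libraries, with log2 fold changes of -4.68 in shallow and -4.75 in deep libraries. All knockout libraries together held 501 counts of SLIT2, against 13739 in parental libraries. SLIT3, a secreted relative, ranged from 3.29 to 5.20 CPM in knockout and 2.17 to 4.44 CPM in parental libraries. It did not pass (log2 fold change 0.46, edgeR adjusted p = 0.0911) but was called higher with the replicate block (edgeR adjusted p = 0.00127). SLIT2 made up 12.0% to 22.3% of the summed Slit level per kilobase in knockout libraries and 83.8% to 91.0% in parental libraries. SLIT1, best known from the nervous system, stayed below 0.1 CPM in every library and was not tested.

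The Robo receptors showed a single call. ROBO4 (chromosome 11, 124883691 to 124898500, hg38), a receptor known from endothelial cells, was at 0.949, 0.866, 1.02, 0.892 and 0.919 CPM in knockout replicates 1 to 5, against 2.06, 2.23, 1.87, 1.95 and 1.77 CPM in parental replicates 1 to 5. The ranges of 0.866 to 1.02 CPM in knockout and 1.77 to 2.23 CPM in parental libraries were apart, and the difference hardly varied with depth, at log2 fold changes of -1.12 in shallow and -1.06 in deep libraries. It fell 2.12-fold (log2 fold change -1.09 with its standard error of 0.101, edgeR adjusted p = 1.62e-05). Among 6 endothelial markers 1 was called, TIE1, which encodes a vessel receptor and rose to 8.70 to 12.8 CPM in knockout, against 3.57 to 6.35 CPM in parental libraries. PECAM1 was at 0.666 to 1.91 CPM in knockout and 0.204 to 1.06 CPM in parental libraries and was called higher with the replicate block and not without it (edgeR adjusted p = 1.88e-04). CDH5 was at most 0.366 CPM, KDR at most 0.216 CPM and TEK at most 0.289 CPM in all libraries. VWF was not called and was lower in the deep libraries. In knockout cells it was at 0.323 to 1.135 CPM in shallow and 0.0642 and 0.0654 CPM in deep libraries. In parental cells it was at 0.378 to 0.548 CPM in shallow and 0.0264 and 0.0440 CPM in deep libraries. The summed level of the 6 markers was 9.61 to 16.2 CPM in knockout and 3.95 to 8.2 CPM in parental libraries, and their part in the ROBO4 result was not tested. ROBO1, a widely expressed Slit receptor, ranged from 1.40 to 2.05 CPM in knockout and 1.31 to 2.47 CPM in parental libraries and did not pass (edgeR adjusted p = 0.491). ROBO3, which governs midline crossing of axons, ranged from 1.70 to 2.96 CPM in knockout and 1.58 to 2.27 CPM in parental libraries (edgeR adjusted p = 0.186, and 0.0221, as higher, with the replicate block). ROBO2 was not tested, at no more than 0.0898 CPM in knockout and 0.189 CPM in parental libraries. Per kilobase, ROBO3 was at 0.342 CPM per kb in knockout cells, ahead of ROBO1 and ROBO4, while in parental cells ROBO4 and ROBO3 were near each other at 0.281 and 0.273 CPM per kb.

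Among netrins, NTN4 (chromosome 12, 95657807 to 95791152, hg38), a netrin of basement membranes that binds laminin, made up 95.9% to 98.0% of the summed level per kilobase in knockout and 98.7% to 99.2% in parental libraries. It was at 60.4, 56.8, 57.3, 47.8 and 47.9 CPM in knockout replicates 1 to 5, against 93.9, 86.3, 90.9, 83.6 and 80.1 CPM in parental replicates 1 to 5. Every knockout library was below every parental one, and the decrease was seen in both sets of libraries (-0.64 in shallow and -0.79 in deep libraries). Means were 54.0 ± 5.80 CPM in knockout and 87.0 ± 5.54 CPM in parental cells, a 1.61-fold fall (log2 fold change -0.69 with its standard error of 0.0845, edgeR adjusted p = 1.17e-04). NTN3 rose at a low level, over a range of 0.365 to 1.06 CPM in knockout and 0.182 to 0.424 CPM in parental libraries that overlapped (log2 fold change 1.13 with its standard error of 0.387, edgeR adjusted p = 0.0429, exact two-sided permutation p = 0.0635). This call was lost without knockout replicate 1 or 3 or parental replicate 2, 4 or 5 (edgeR adjusted p = 0.0925 to 0.112), with no filter (0.0551) and after removing the chromosome median (0.0554). NTN1, the founding member of the family, ranged from 0.112 to 0.431 CPM in knockout and 0.318 to 0.595 CPM in parental libraries and did not pass (edgeR adjusted p = 0.267). NTN5 was too low for the test over all libraries. It held 200 counts in knockout and 39 in parental libraries, and its ranges of 0.154 to 0.305 CPM in knockout and 0.0315 to 0.0530 CPM in parental libraries were apart. In the deep libraries alone, where it passed the filter, its log2 fold change was 2.43 (edgeR adjusted p = 2.74e-06).

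Both netrin receptors that could be tested over all libraries were higher in knockout cells. DCC (chromosome 18, 52340172 to 53535903, hg38), the attractive netrin receptor, was at 6.87, 5.79, 6.12, 8.91 and 8.93 CPM in knockout replicates 1 to 5, against 3.94, 3.55, 3.55, 4.33 and 4.34 CPM in parental replicates 1 to 5. All knockout libraries were above all parental ones, and the deep libraries of both genotypes were above the shallow ones. The level was 7.33 ± 1.51 CPM in knockout and 3.94 ± 0.393 CPM in parental cells, a 1.86-fold rise (log2 fold change 0.89 with its standard error of 0.143, edgeR adjusted p = 6.98e-04), with log2 fold changes of 0.76 in shallow and 1.02 in deep libraries. UNC5B (chromosome 10, 71212570 to 71302864, hg38), a repulsive receptor, was at 1.34, 1.23, 1.204, 0.922 and 0.949 CPM in knockout replicates 1 to 5, against 0.567, 0.265, 0.212, 0.270 and 0.226 CPM in parental replicates 1 to 5. Parental replicate 1 stood above the other parental libraries and still below every knockout library. UNC5B rose 3.69-fold (log2 fold change 1.88 with its standard error of 0.277, edgeR adjusted p = 3.87e-04), and its log2 fold change was 2.20 without parental replicate 1. UNC5A, UNC5C and UNC5D were not tested over all libraries, and none of them exceeded 0.168 CPM in any library. In the deep libraries alone, where it passed the filter, UNC5A was called lower (log2 fold change -1.26, edgeR adjusted p = 0.0406). There it was at 0.0175 and 0.0297 CPM in knockout and 0.0502 and 0.0628 CPM in parental libraries. Of 6 neuronal markers, set beside DCC because it is best known in neurons, 3 were called, all higher, while SYT1 averaged 18.65 CPM in knockout and 20.1 CPM in parental cells and was called lower with the replicate block (edgeR adjusted p = 0.0433). SNAP25 was at 9.66 to 13.4 CPM in knockout and 3.98 to 5.35 CPM in parental libraries, while RBFOX3 and STMN2, which mark mature and growing neurons, reached at most 0.377 and 0.0582 CPM in any library. The summed level of the 6, mostly TUBB3, was 396 to 635 CPM in knockout and 271 to 432 CPM in parental libraries, and their part in the DCC result was not tested.

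EPHA2, an Eph receptor of epithelial cells, was the most abundant guidance gene per kilobase, and over all libraries it gave no call. It was at 441.1, 411.5, 408.1, 298.4 and 299.5 CPM in knockout replicates 1 to 5, against 481.7, 390.7, 423.5, 335.1 and 323.9 CPM in parental replicates 1 to 5. The genotypes overlapped, and the shallow libraries of both were above the deep. The means of 371.7 ± 67.7 CPM in knockout and 391.0 ± 65.0 CPM in parental cells did not differ beyond their spread (log2 fold change -0.07 and its standard error 0.148, with an edgeR adjusted p = 0.763). In the deep libraries alone it was called lower at -0.16 (edgeR adjusted p = 5.86e-05). EPHA2 made up 96.8% to 98.3% of the summed EphA level per kilobase in knockout and 96.2% to 97.8% in parental libraries. EPHA5 (chromosome 4, 65319563 to 65670495, hg38), a receptor for A ephrins that is best known in the brain, was at 2.74, 3.14, 3.16, 4.52 and 4.32 CPM in knockout replicates 1 to 5, against 10.3, 10.5, 10.8, 14.5 and 14.3 CPM in parental replicates 1 to 5. All knockout libraries were far below all parental ones, and in both genotypes the deep libraries were above the shallow. It fell 3.37-fold, to 3.57 ± 0.793 CPM in knockout cells, against 12.1 ± 2.14 CPM in parental cells (log2 fold change -1.75 with its standard error of 0.173, edgeR adjusted p = 2.64e-05), with log2 fold changes of -1.81 in shallow and -1.72 in deep libraries. Its antisense gene EPHA5-AS1, which shares 5.44% of the exon bases of EPHA5, was also lower, at 0.866 to 1.501 CPM in knockout and 1.52 to 2.01 CPM in parental libraries (log2 fold change -0.81, edgeR adjusted p = 0.00282). Whether counting used strand is not stated in what was read here, and reads in the shared stretch cannot be told apart.

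EPHA4, which binds both classes of ephrin, was at 10.6, 9.10, 8.66, 12.8 and 12.5 CPM in knockout replicates 1 to 5, against 9.67, 8.59, 9.09, 10.2 and 10.6 CPM in parental replicates 1 to 5. The ranges overlapped (log2 fold change 0.15, edgeR adjusted p = 0.384), and in the deep libraries alone it was called higher at 0.26 (edgeR adjusted p = 2.83e-05). EPHA1 ranged from 0.709 to 1.19 CPM in knockout and 0.948 to 1.61 CPM in parental libraries and did not pass (edgeR adjusted p = 0.149). With the replicate block it was called lower (edgeR adjusted p = 0.0189), and its log2 fold change relative to the median of chromosome 7 was -0.10. EPHA3, EPHA6, EPHA7, EPHA8 and EPHA10 were not tested, and the highest value among these 5 was 0.141 CPM.

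**Figure D2:**
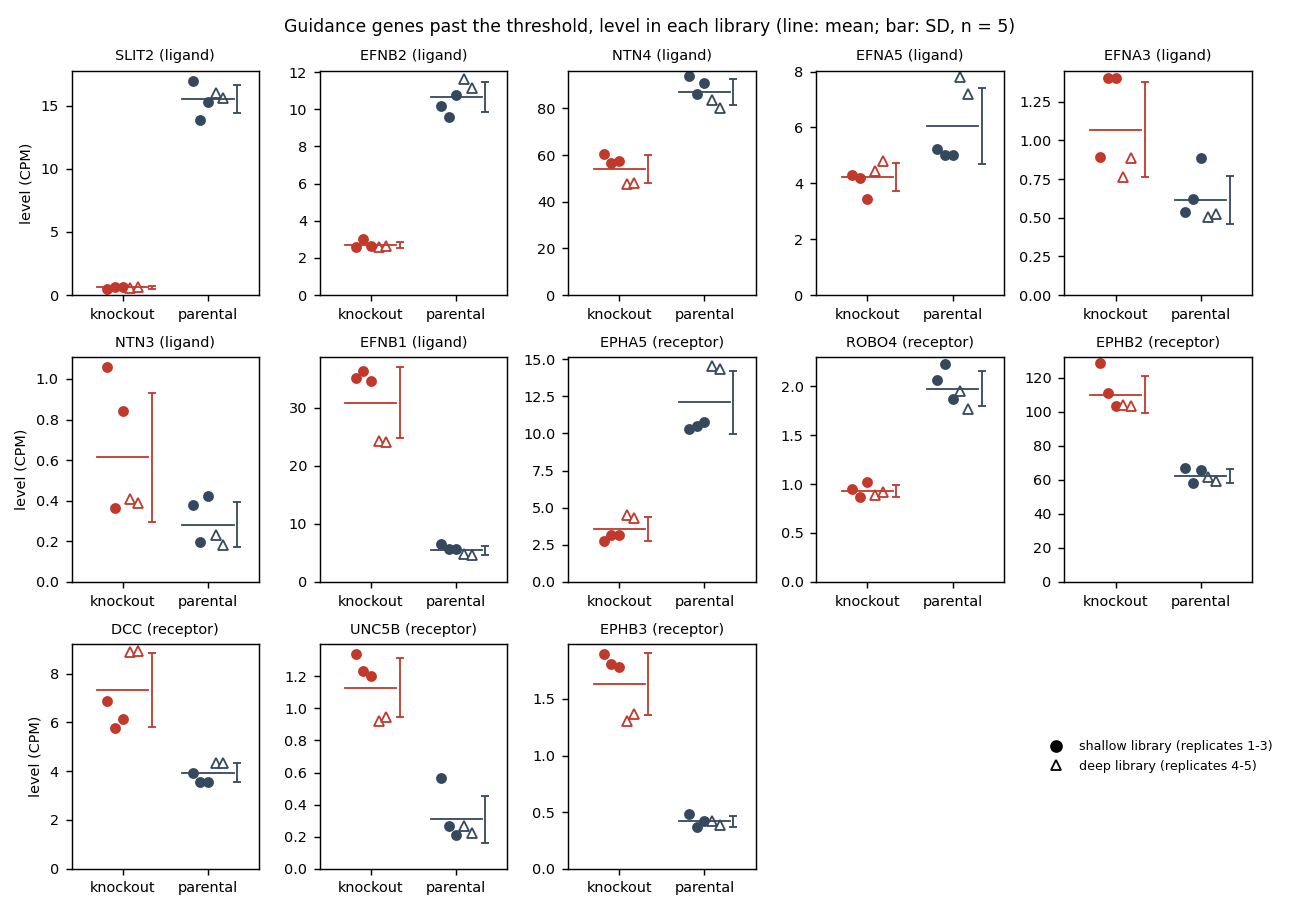
Level in CPM (y axis, from 0) of the 13 guidance genes with an adjusted p under 0.05, in knockout and parental libraries, with a line at the mean and a bar for the SD (n = 5). SLIT2 lies at 0.465 to 0.673 CPM in knockout and at 13.8 to 16.9 CPM in parental libraries, and the ranges of EFNA3 and NTN3 overlap.

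The EphB receptors gave 2 rises and no fall, and all 5 members could be tested. EPHB2 (chromosome 1, 22710839 to 22921500, hg38), a receptor for B ephrins, was at 128.5, 111.0, 103.5, 103.8 and 103.7 CPM in knockout replicates 1 to 5, against 67.0, 58.2, 65.9, 61.5 and 59.3 CPM in parental replicates 1 to 5. The lowest knockout library was well above the highest parental one, and the difference was alike in both sets, at log2 fold changes of 0.84 in shallow and 0.76 in deep libraries. Its level rose to 110.1 ± 10.8 CPM in knockout cells, against 62.4 ± 3.93 CPM in parental cells (log2 fold change 0.82 with its standard error of 0.0784, edgeR adjusted p = 2.05e-05). EPHB3 (chromosome 3, 184561784 to 184582409, hg38), which like EPHB2 is a Wnt target in intestinal crypts, was at 1.90, 1.81, 1.78, 1.30 and 1.37 CPM in knockout replicates 1 to 5, against 0.488, 0.371, 0.424, 0.426 and 0.383 CPM in parental replicates 1 to 5. The groups were apart, and in knockout cells the shallow libraries were above the deep. EPHB3 rose 3.89-fold (log2 fold change 1.96 with its standard error of 0.150, edgeR adjusted p = 4.19e-06) and held 1203 counts over the knockout and 359 over the parental libraries. EPHB1 was at 11.4, 10.5, 10.4, 11.1 and 11.1 CPM in knockout replicates 1 to 5, against 10.5, 10.2, 11.7, 10.9 and 11.3 CPM in parental replicates 1 to 5. The 10 values lay between 10.2 and 11.7 CPM, and the difference did not pass (log2 fold change -0.0025 and its standard error 0.0645, with an edgeR adjusted p = 0.984).

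EPHB4, the receptor of ephrin-B2 in veins, was at 64.0, 59.2, 56.5, 46.2 and 46.0 CPM in knockout replicates 1 to 5, against 78.8, 68.2, 72.9, 59.8 and 60.6 CPM in parental replicates 1 to 5. In each set the knockout libraries were below the parental ones, although the pooled ranges overlapped. The means were 54.4 ± 8.02 CPM in knockout and 68.0 ± 8.07 CPM in parental cells, and the test over all libraries did not pass (log2 fold change -0.32, edgeR adjusted p = 0.0527, exact two-sided permutation p = 0.0317). With the replicate block EPHB4 was called lower (edgeR adjusted p = 5.74e-05). With genotype as the only term the other programs DESeq2 and limma-voom also called it lower (adjusted p = 0.017 and 0.0455). Scaling by library size only did not (edgeR adjusted p = 0.0762). EPHB6, an Eph receptor without kinase activity, ranged from 6.13 to 8.64 CPM in knockout and 8.01 to 9.81 CPM in parental libraries (edgeR adjusted p = 0.0685, and 8.6e-04, as lower, with the replicate block). EPHB4 and EPHB6 both lie on chromosome 7, whose protein-coding genes had a median log2 fold change of -0.30, and relative to that median their log2 fold changes were -0.03 and 0.02. The balance between the main EphB receptors moved: per kilobase EPHB2 made up 40.6% to 44.8% of the sum in knockout and 25.1% to 28.3% in parental libraries, and EPHB4 made up 38.6% to 43.2% in knockout and 53.5% to 58.1% in parental libraries. The summed EphB level was 20.5 ± 2.25 CPM per kb in knockout and 18.9 ± 1.65 CPM per kb in parental cells, with overlapping ranges.

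**Figure D3:**
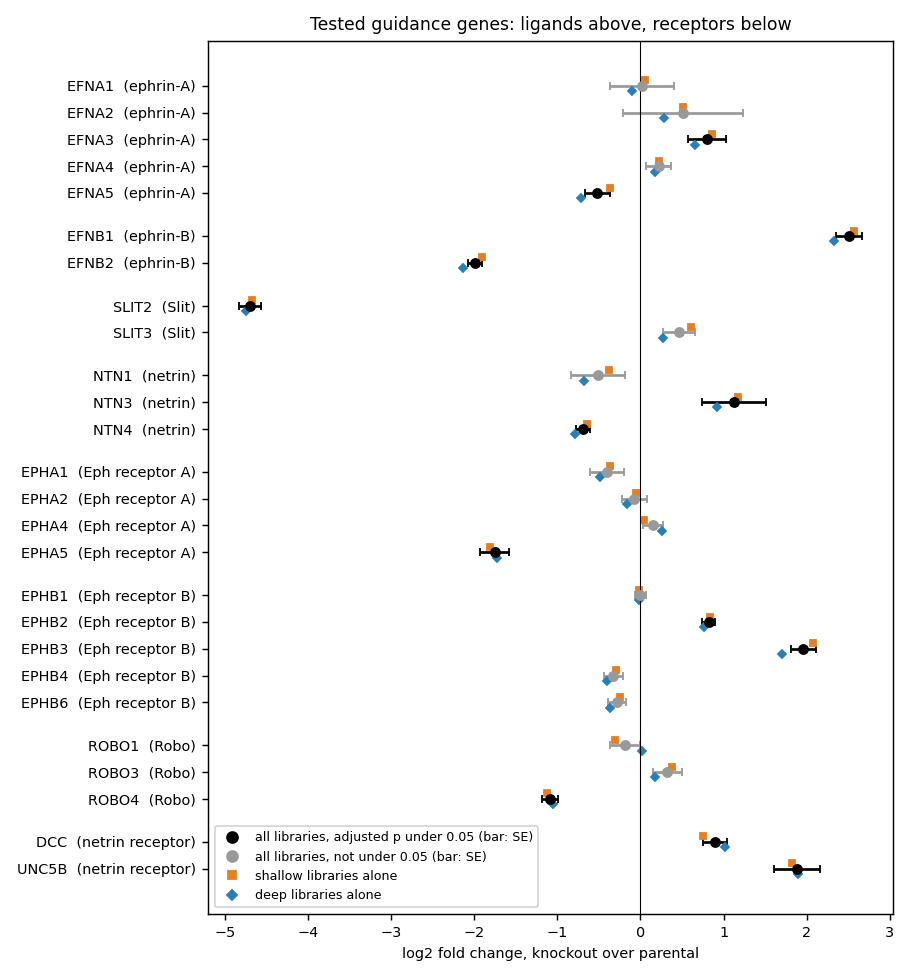
Log2 fold change of knockout over parental (x axis) of the 26 tested guidance genes, grouped by family, with bars for the standard error and small symbols for the shallow and the deep libraries alone. SLIT2 is lowest at -4.70 and EFNB1 highest at 2.5, and for all 13 called genes both sets of libraries lie on the same side of 0.

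**Figure D4:**
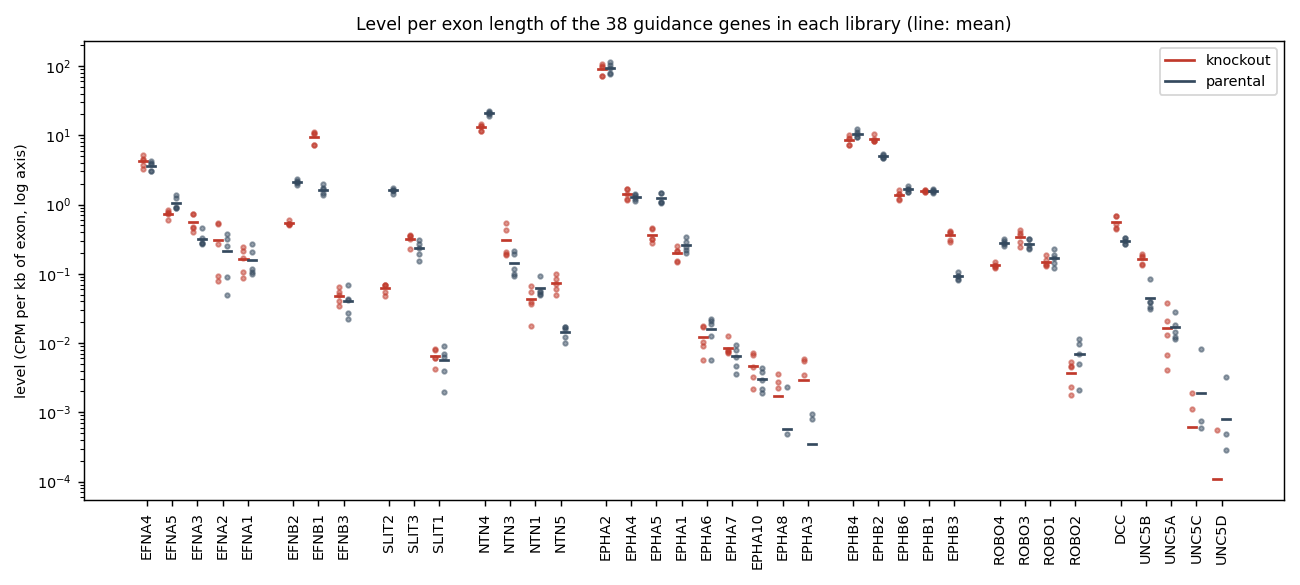
Level per kb of exon (log axis) of all 38 guidance genes, with points for libraries (those with 0 counts are left out) and lines for the mean of 5. EPHA2 is highest, at 89.4 CPM per kb in knockout and 94.0 CPM per kb in parental cells, followed by NTN4 at 13.0 CPM per kb in knockout and 20.9 CPM per kb in parental cells.

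The calls can also be set out by pathway. In the EphB system EFNB1, EPHB2 and EPHB3 were higher, EFNB2 was lower and EPHB1 gave no call. EPHB4 and EPHB6 did not pass in edgeR's fit with genotype as the only term. Both were called lower with the replicate block and also with depth as a term (edgeR adjusted p = 1.77e-05 and 3.75e-04). Those fits called 61.2% and 64% of all genes. Relative to the median of chromosome 7, the log2 fold changes of EPHB4 and EPHB6 were -0.03 and 0.02. Among Slits and Robo receptors SLIT2 and ROBO4 were lower and ROBO1 gave no call. Whether SLIT2 acts through ROBO4 was not tested. SLIT3 and ROBO3 did not pass with genotype as the only term. Both were called higher with the replicate block and also with depth as a term (edgeR adjusted p = 0.00563 and 0.0135). Among netrins NTN4 was lower and NTN3 higher, the latter a call that several alternatives ended. Of the netrin receptors DCC and UNC5B were higher. Whether NTN4 acts through these receptors was not tested. The summed netrin receptor level was 0.739 ± 0.0882 CPM per kb in knockout and 0.364 ± 0.032 CPM per kb in parental cells, and the summed netrin level was 13.4 ± 1.51 CPM per kb in knockout and 21.1 ± 1.38 CPM per kb in parental cells. In each case the 5 knockout libraries were on 1 side of the 5 parental libraries.

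Beyond the 38 genes, a list of 44 partners and cytoplasmic effectors of these receptors was examined in the same fit. Of 38 that could be tested 7 were higher, 8 were lower and 23 did not pass, which sets 15 of 38 against 36.6% of all genes. With the replicate block 12 were higher and 16 lower, where the shares among all genes tested were 31.1% higher and 30.1% lower. ADGRL2, a latrophilin whose family binds the FLRT partners of UNC5 receptors, rose most, to 58.2 ± 15.4 CPM in knockout cells, against 4.33 ± 1.14 CPM in parental cells (log2 fold change 3.74 with its standard error of 0.241, edgeR adjusted p = 1.34e-06). The membrane-anchored netrin relatives NTNG2 and NTNG1, which do not act through DCC, also rose. NTNG2 was at 7.08 ± 1.601 CPM in knockout and 1.23 ± 0.275 CPM in parental cells (log2 fold change 2.54 with its standard error of 0.205, edgeR adjusted p = 6.39e-06), and NTNG1 at 28.7 ± 3.62 CPM in knockout and 14.7 ± 1.497 CPM in parental cells (log2 fold change 0.97 with its standard error of 0.103, edgeR adjusted p = 4.48e-05). ABLIM1, an actin-binding protein whose worm counterpart acts in netrin-guided outgrowth, fell to 3.76 ± 0.692 CPM in knockout cells, against 42.5 ± 5.39 CPM in parental cells (log2 fold change -3.50 with its standard error of 0.148, edgeR adjusted p = 7.79e-08). FYN, a Src family kinase used by DCC and by Eph receptors, fell to 34.5 ± 2.96 CPM in knockout cells, against 59.0 ± 1.81 CPM in parental cells (log2 fold change -0.77 with its standard error of 0.0693, edgeR adjusted p = 1.25e-05). Genes of chromosome 6, which carries FYN, had a median of -0.32. GRIP1, a scaffold that binds the tails of B ephrins and EphB receptors, was at 1.04 ± 0.0767 CPM in knockout and 2.54 ± 0.356 CPM in parental cells (log2 fold change -1.28 with its standard error of 0.121, edgeR adjusted p = 1.83e-05). For these 6 genes no knockout library lay within the parental range, which their choice by smallest adjusted p makes likely. Ranges did not overlap for 14 of the 38 tested list genes and for 30.6% of all genes tested. NEO1, a further netrin receptor related to DCC, was at 16.8 ± 2.89 CPM in knockout and 20.5 ± 1.81 CPM in parental cells and did not pass (edgeR adjusted p = 0.0951, and 8.47e-04, as lower, with the replicate block).

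**Figure D5:**
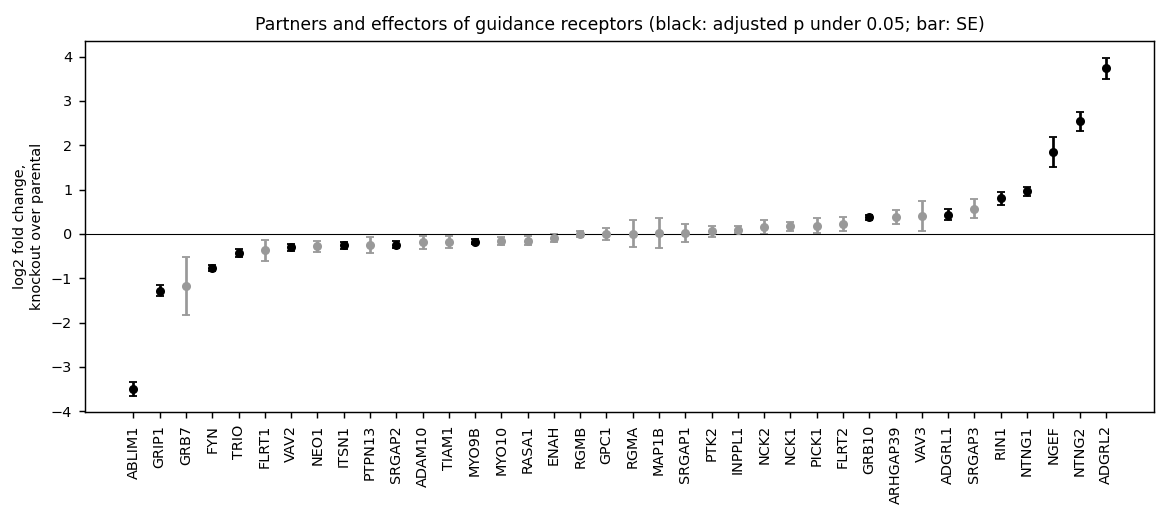
Log2 fold change of knockout over parental (y axis) of the 38 tested partners and effectors, ordered by value, with bars for the standard error and called genes in black. ADGRL2 is highest at 3.74 and ABLIM1 lowest at -3.50.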

How the data were processed

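Polyadenylated RNA of 10 libraries, 5 CCAR1 knockout and 5 parental, was grouped by genotype and replicate number from the sample titles. The authors deposited expected counts (estimated counts per gene and library, not scaled for depth or length). The submitters' processing notes name kallisto 0.48.0 and hg38, while no annotation release or way of summing transcripts is named in the sources used here. Because kallisto assigns ambiguous reads in proportion to estimated abundance, similar genes may trade counts.

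The estimates were rounded, filtered by edgeR's filterByExpr with genotype as group (18979 of 62700 genes kept), scaled by TMM and fitted with genotype as the only term by edgeR's robust quasi-likelihood test (R 4.3.3, edgeR 4.0.16). P-values were adjusted by Benjamini-Hochberg over all genes kept, at a threshold of 0.05. Standard errors come from the coefficient and its F statistic, and exact two-sided permutation tests used log2 CPM with a prior count of 3. The fit was tested on simulated data. Positions, exon lengths and overlaps are from GENCODE 29 (GRCh38), matched by gene ID, and sequences from RefSeq (GRCh38.p14), which held 32 of the 38 genes at full length.

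No 2 libraries of the same genotype and depth were alike enough to be 1 library (chi-square of counts per gene 6.99 to 26.7). This value cannot tell separate cultures from repeated preparations of the same RNA. Libraries with the same number in both genotypes shared their deviations from the genotype means (r across genes 0.64, 0.584, 0.606, 0.899 and 0.894). Each r was over 0.1, the level taken as pairing. These deviations hold the split of shallow and deep sets, so they cannot tell pairing by replicate number from that split. The replicate block is printed where it changes the call of a guidance gene or marker. The interaction of genotype and depth was added after seeing the data.

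Alternatives were no filter, at least 1 CPM in 5 libraries, scaling by library size only or by DESeq2 size factors, limma-voom (limma 3.58.1), DESeq2 1.42.0, no robust step, the replicate block, depth as a term, each depth alone, the chromosome median subtracted, and each library left out. Members, lists, markers and alternatives were chosen with earlier results of these data known. Values in every library are given for members past 0.05 with a mean of at least 1 CPM in either genotype and for others with at least 10 CPM. Of the partner list the 3 genes with the smallest adjusted p in each direction and at least 1 CPM are named. NEO1, EFNA3's readthrough partner, EPHA5-AS1 and the named markers were chosen after their values were seen.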

Additional observations from a re-analysis of the deposited data

Results flagged for a closer look

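In 3 of 52 groups of 5 libraries (26 tested guidance genes in both genotypes) 1 library stood apart by Dixon's test at its 95% critical value of 0.71. For independent, normally distributed values chance gives about 1 in 20 such groups. The groups here mix shallow and deep libraries and come from the same 10 libraries, so that rate may not apply. EFNB2 in knockout replicate 2 was at 3.00 CPM, with the other knockout libraries at 2.57 to 2.65 CPM. NTN1 in parental replicate 4 was at 0.595 CPM, with the other parental libraries at 0.318 to 0.362 CPM. UNC5B in parental replicate 1 was at 0.567 CPM, with the other parental libraries at 0.212 to 0.270 CPM. Without that library the log2 fold change of UNC5B was 2.20 in place of 1.88. The genotype effect of none of the 26 genes differed between deep and shallow libraries in edgeR's interaction test, which called 0.601% of all genes.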

How the results depend on the processing

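None of the 26 tested genes changed direction among called values under any alternative run, and 10 of the 13 calls held under all of those in which the gene was tested. The exceptions were EFNA3, EFNA5 and NTN3, named with their values above. Guidance genes higher and lower numbered 4 and 6 with a filter of 1 CPM in 5 libraries, which tests 20 of them, and 11 and 11 in the deep libraries alone, which test 33. Higher ligands numbered 1 with that filter, 5 with the replicate block, 5 with depth as a term and 6 in the deep libraries alone. Lower receptors numbered 4 with DESeq2, 4 with limma-voom, 5 with the replicate block, 5 with depth as a term, 4 with shallow libraries alone and 7 with deep libraries alone. Partner genes numbered 12 higher and 16 lower with the replicate block, 13 and 15 with depth as a term, 11 and 15 with shallow libraries alone and 16 and 18 with deep libraries alone. Lower partner genes numbered 5 under library size only and 5 where no filter was applied. With each library left out in turn, 31.8% to 36.3% of all genes were called. In those fits 6 to 8 guidance genes were higher and 6 to 8 lower. Ligands gave 2 to 4 higher and 3 to 4 lower, and receptors 4 higher and 2 to 4 lower. Partner genes gave 6 to 9 higher and 6 to 8 lower. The cause of these differences was not tested, beyond the number of genes tested. The replicate block ended no call and added those of EFNA4, EPHA1, EPHB4, EPHB6, ROBO3 and SLIT3. Library size only shifted the median of all genes to 0.07. Over all genes the split was 4271 higher and 2605 lower with library size only and 3794 and 2556 with chromosome medians subtracted, against 3741 and 3198. The share of all genes called was 41.1% with the 1 CPM filter, 41.3% with DESeq2, 38.1% with limma-voom, 61.2% with the block, 64% with depth as a term, 52.7% for shallow libraries alone, 57% for deep libraries alone, 36.2% under library size only and 13.6% where no filter was applied, against 36.6%. All genes called higher and lower numbered 5906 and 5713 under the block, 6200 and 5949 under depth as a term and 7775 and 7545 for deep libraries alone. Depth limits the genes below 1 CPM most: NTN5 rests on 200 counts in knockout and 39 in parental libraries.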

Other observations

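Several guidance genes were at different levels in the shallow and the deep libraries of both genotypes. EFNA2 was at 0.252 to 0.519 CPM in shallow and 0.0758 and 0.0892 CPM in deep knockout libraries, against 0.236 to 0.353 CPM in shallow and 0.0846 and 0.0471 CPM in deep parental libraries. EFNA1 was at 0.428 to 0.616 CPM in shallow and 0.268 and 0.223 CPM in deep knockout libraries, against 0.299 to 0.689 CPM in shallow and 0.251 and 0.270 CPM in deep parental libraries. EPHA5 and DCC went the other way, with both deep libraries above all shallow ones in each genotype. EFNB1 was at 34.6 to 36.3 CPM in shallow and 24.3 and 24.1 CPM in deep knockout libraries, against 5.60 to 6.49 CPM in shallow and 4.89 and 4.59 CPM in deep parental libraries. The muscle, blood and liver transcripts move with the same split, and their part in these levels was not tested.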
